A study of Mus musculus with 8 samples.

Results

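The genes described here repair breaks through both strands of DNA and crosslinks between the strands. They were taken from a fixed list of 41 symbols covering homologous recombination, the Fanconi anemia pathway, end joining, mismatch repair, checkpoint signalling and the marking of damage. Of these, 40 were found by symbol among 24499 genes in the deposited table, and where a gene had several transcripts the one with the highest average of the 2 group means stood for it. All 40 had a mean of at least 1 RPKM (reads scaled by transcript length and by the sample's sequencing depth) in at least one group, as did 15821 genes in all. Rad9a was not found under that symbol and is given separately below from its older name.

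The samples were testes of mice at postnatal day 5 on the 129/SVJ background. The 4 wild-type samples carried no listed alteration, and the 4 samples labelled Dio3KO carried an altered Dio3, the gene of the deiodinase that inactivates thyroid hormones. The series title states the question, which genes thyroid hormone regulates in the neonatal testis. The labels do not describe the altered allele or say whether testes were pooled. Dio3 itself was higher in the Dio3KO-labelled samples, with means of 0.52 and 2.95 RPKM (authors' deposited table, adjusted p = 0.0408). Its level therefore does not check the labels, and the group is called Dio3KO-labelled throughout.

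Breaks through both strands are repaired by 2 main routes. Homologous recombination copies the missing sequence from the sister chromatid and is used mainly while DNA is being replicated and before mitosis, whereas end joining ligates the ends directly and is available through the whole cell cycle. The Fanconi anemia pathway unhooks crosslinks that block replication forks and hands the resulting breaks to homologous recombination. In the testis the same machinery serves dividing somatic cells and spermatogonia and, later, the programmed breaks of meiosis. At postnatal day 5 in the mouse, Sertoli cells and spermatogonia are dividing and meiosis has not begun.

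Each gene has a mean RPKM per group and a coefficient of variation (CV, SD divided by mean), as the authors deposited them, so the values of single samples were not analysed here. Sequencing depth is unknown, and the precision of each value rests on the CVs of 4 samples per group. Among the 40 genes the median CV was 0.06 in wild type and 0.06 in the Dio3KO-labelled group, and no CV exceeded 0.12 and 0.13 respectively. Because 4 values cannot lie further than 1.5 SD from their mean, the mean and CV also give the widest range that the samples of a group can span, and groups whose ranges are apart cannot overlap in any sample. "Fell" and "rose" are used only of genes whose adjusted p, as given in the authors' deposited table, was below 0.05, and log2 ratios are Dio3KO-labelled over wild type on the log2(RPKM + 0.5) scale, with an SE computed from the CVs. The series' design text calls the samples of a group biological replicates. Which test gave these p-values is not stated.

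Repair genes were lower in the Dio3KO-labelled testes by modest amounts and mostly in 1 direction. Of the 40 genes, 26 fell, 0 rose and 14 did not pass, while among all 15821 genes 15.8% fell and 13.8% rose by the same rule. The moderated limma test, which pools the spread across genes, called 28 lower and 0 higher, against 23.1% and 18.5% of all genes. At an unadjusted limma p below 0.05 the counts were 29 and 0, against 4573 and 3449 of all 15821 genes. The log2 ratio was below 0 for 37 of the 40, with a median of -0.32 against -0.05 for all genes. At a stricter threshold of 0.01 on the deposited p, 10 were lower and 0 higher, against 4.90% and 4.27% of all genes. Among the 26, the smallest change was in Xrcc5, which fell by 9.95% of its wild-type mean, and the largest in H2afx, which fell by 42.2%, while the median gene fell by 26.2%, and 0 of the 40 differed by 2-fold or more. For 24 of the 26 the widest possible ranges of the groups were apart, a condition met in the lower direction by 12.6% and in the higher direction by 11.9% of all genes. The remaining 2 that fell, Rad51c and Xrcc5, may overlap between single samples. Wild-type levels ran from 2.19 RPKM for Lig4 to 439 RPKM for H2afx, with a median of 11.6 RPKM, and Spearman's rho between level and log2 ratio was 0.04 across the 40 genes, which come from the same 8 libraries and are not independent replicates.

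**Figure D1:**
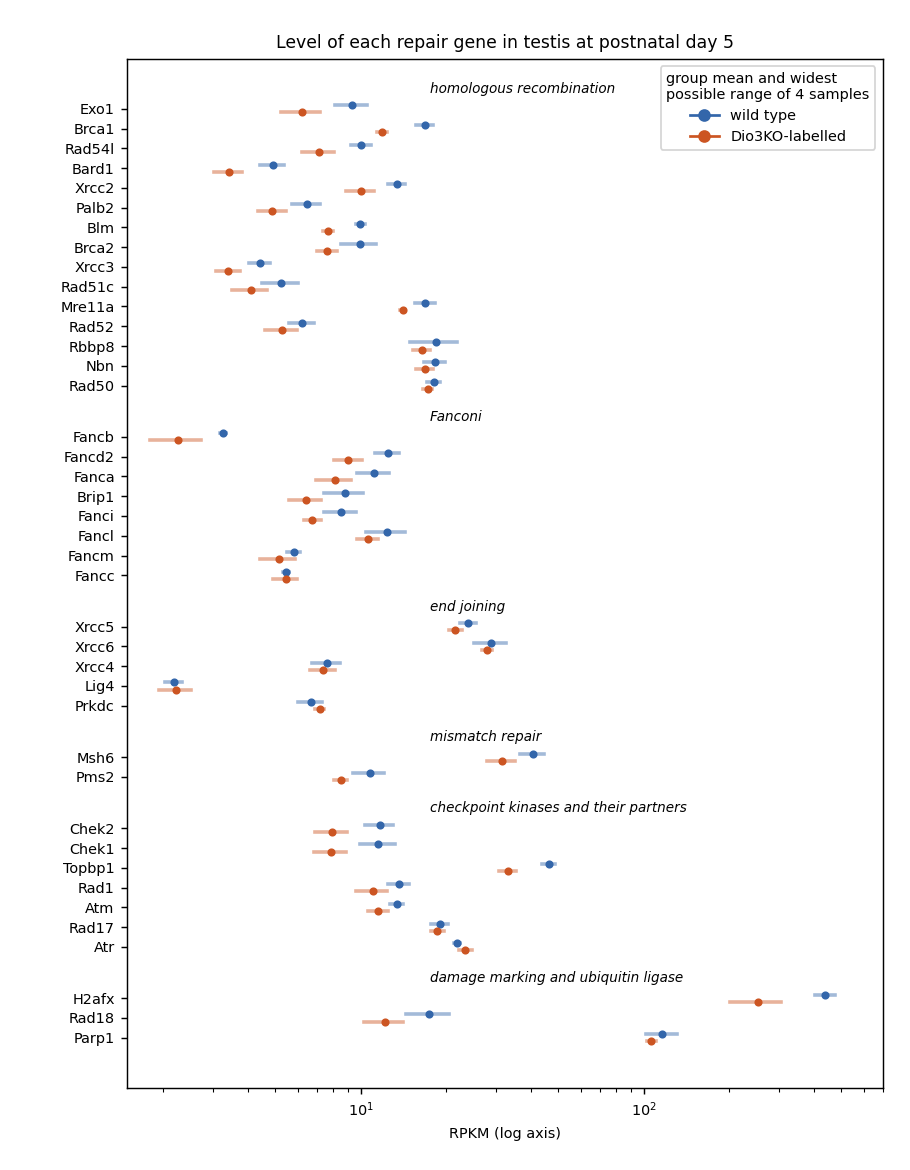
Mean level (points) of the 40 repair genes in wild-type (blue) and Dio3KO-labelled (orange) testes on a log axis in RPKM, with lines showing the widest range that 4 samples with the deposited mean and CV can span. The lines are apart for 24 genes, each lower in the Dio3KO-labelled group, and overlap for all 5 end-joining genes.

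Promoters are shown because many repair genes fell together and genes of replicating cells commonly carry sites for E2F factors, which drive the entry into S phase, and for the DREAM complex, which represses cell cycle genes at the cell cycle homology region. RefSeq promoter windows (GRCm38.p6, the assembly of mm10, 250 bases before to 50 after a start) were matched for 32 of the 40 genes, with 37 windows. Motifs were searched on both strands, and matches of different motifs may share bases. An E2F motif, spelled TTTCGCGC, TTTGGCGC or TTTCCCGC, stood in a window of 7 of the 32 genes (21.9%), namely Bard1, Brca2, Chek2, Msh6, Rad51c, Topbp1 and Xrcc6. The share was 2.12% of all 27025 genes with a window, 4.09% of the 9569 of them at 1 RPKM or more, 7.27% of those that fell and 3.46% of the rest of those 9569. Of these 7 repair genes 6 fell and Xrcc6 did not pass, while 22 of all 32 repair genes with a window fell. The motif thus stood in 6 of the 22 that fell and in 1 of the 10 that did not pass. The cell cycle homology region, spelled TTTGAA or TTCGAA, the latter reading the same on both strands, was in 2 of 32 genes (6.25%) against 16.3% of genes at 1 RPKM or more, in Bard1 and Atr. The NF-Y box CCAAT was in 17 of 32 (53.1%, against 43.5%), the GC box GGGCGG in 22 of 32 (68.8%, against 68.7%) and the nuclear receptor motif AGGTCA in 5 of 32 (15.6%, against 14.9%). A match is a description of letters and not a measured site. The windows printed here are of 4 genes that fell and of Xrcc6, which holds the motif and did not pass. They are printed 5′ to 3′ on the gene's strand, with capitals marking E2F motifs or their reverse complement and, in Bard1 alone, also TTTGAA.
Topbp1 (chr9:103305077-103305376, plus strand): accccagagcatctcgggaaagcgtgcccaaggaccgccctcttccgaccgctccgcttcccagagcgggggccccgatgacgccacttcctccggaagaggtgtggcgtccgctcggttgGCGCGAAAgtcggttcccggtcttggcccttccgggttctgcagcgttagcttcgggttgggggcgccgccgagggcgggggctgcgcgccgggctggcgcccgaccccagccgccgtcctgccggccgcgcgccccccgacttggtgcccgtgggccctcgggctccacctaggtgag
Chek2 (chr5:110839733-110840032, plus strand): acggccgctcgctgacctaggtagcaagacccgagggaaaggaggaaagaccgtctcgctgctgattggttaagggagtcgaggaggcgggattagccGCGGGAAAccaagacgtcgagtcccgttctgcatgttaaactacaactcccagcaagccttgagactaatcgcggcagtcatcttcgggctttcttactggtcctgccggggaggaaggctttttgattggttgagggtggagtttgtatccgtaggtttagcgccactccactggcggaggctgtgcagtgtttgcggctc
Bard1 (chr1:71102923-71103222, minus strand): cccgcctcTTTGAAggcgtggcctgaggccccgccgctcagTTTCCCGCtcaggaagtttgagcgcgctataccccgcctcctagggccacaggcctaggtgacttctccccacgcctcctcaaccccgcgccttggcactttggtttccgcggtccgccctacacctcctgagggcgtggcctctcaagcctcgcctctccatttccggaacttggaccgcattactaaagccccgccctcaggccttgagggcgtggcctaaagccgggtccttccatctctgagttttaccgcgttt
Msh6 (chr17:87974800-87975099, plus strand): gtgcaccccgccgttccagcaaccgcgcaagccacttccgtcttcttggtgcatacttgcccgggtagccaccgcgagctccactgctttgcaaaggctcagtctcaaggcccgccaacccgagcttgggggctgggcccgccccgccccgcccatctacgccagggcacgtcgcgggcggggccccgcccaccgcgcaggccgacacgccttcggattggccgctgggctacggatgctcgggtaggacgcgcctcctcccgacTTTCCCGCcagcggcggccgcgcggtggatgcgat
Xrcc6 (chr15:82016119-82016418, plus strand): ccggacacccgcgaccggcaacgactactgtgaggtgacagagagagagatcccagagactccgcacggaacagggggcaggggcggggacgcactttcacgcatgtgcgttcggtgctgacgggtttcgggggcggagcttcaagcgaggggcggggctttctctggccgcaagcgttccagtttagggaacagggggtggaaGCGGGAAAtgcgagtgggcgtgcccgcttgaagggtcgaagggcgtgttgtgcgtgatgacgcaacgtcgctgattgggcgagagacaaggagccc

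Positions of the motif relative to the start differed between these windows. It began at -129 in Topbp1, whose mean fell by 28.2%, at -152 in Chek2, which fell by 32.2%, and at -209 in Bard1, which fell by 30.2%. In Msh6, which fell by 22.4%, it began at 15, after the start. In Xrcc6, whose means were 28.9 and 28.0 RPKM, it began at -46. All offsets count from the RefSeq start of the window. The GENCODE annotation places the gene starts of Topbp1, Bard1 and Xrcc6 further upstream, so the offsets depend on the annotation. For Xrcc6 the GENCODE gene start, at 81987835, lies upstream of the whole printed window.

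Homologous recombination begins when the broken ends are trimmed to single strands. Exo1, the exonuclease that makes long single-stranded tails, had the deepest fall of the 15 recombination genes, from 9.32 RPKM (CV 0.08) to 6.20 RPKM (CV 0.10). Its log2 ratio was -0.55 ± 0.09 (SE; authors' deposited table, adjusted p = 0.0102). Wild-type samples lay between 8.13 and 10.5 RPKM at most and Dio3KO-labelled samples between 5.22 and 7.18 RPKM, so no sample of one group can have reached the other. The genes that start trimming were closer together between the groups. Mre11a, the nuclease of the complex that binds broken ends, fell from 16.9 RPKM (CV 0.05) to 14.1 RPKM (CV 0.01; authors' deposited table, adjusted p = 0.0272). Its partners did not pass: Rad50, the ATPase that tethers the ends, was at 18.1 and 17.3 RPKM (p 0.0836) and Nbn, which recruits the checkpoint kinase Atm, at 18.3 and 16.9 RPKM (p 0.1198), both in the authors' deposited table. Levels of these 3 partners were within 1.08 times of each other in wild type and within 1.22 times in the Dio3KO-labelled group. Rbbp8, also called CtIP, which activates that nuclease, was at 18.4 RPKM (CV 0.12) and 16.5 RPKM (CV 0.04) and did not pass, with a log2 ratio of -0.16 ± 0.09 (SE; authors' deposited table, adjusted p = 0.2651).

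The genes that load and steer the recombinase onto the single strand fell together, since Brca1, Bard1, Palb2 and Brca2 all passed. Brca1 (chromosome 11, 101488764 to 101551955, minus strand, mm10), the ubiquitin ligase subunit that favours recombination over end joining, fell from 16.9 RPKM (CV 0.04) to 11.9 RPKM (CV 0.02). Its log2 ratio was -0.49 ± 0.03 (SE; authors' deposited table, adjusted p = 0.0041). The lowest possible wild-type sample was at 15.7 RPKM and the highest possible Dio3KO-labelled sample at 12.4 RPKM. Bard1, the obligate partner of Brca1, fell by 30.2%, from 4.90 to 3.42 RPKM, Brca1 fell by 29.4%, and Brca1 stood 3.44 times above Bard1 in wild type and 3.48 times above it in the Dio3KO-labelled group. Palb2, which bridges Brca1 to Brca2, fell from 6.47 to 4.88 RPKM, and Brca2, which places the recombinase on DNA, from 9.94 to 7.64 RPKM. Their adjusted p-values in the authors' deposited table were 0.0068 for Bard1, 0.0134 for Palb2 and 0.0376 for Brca2.

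Helpers of strand invasion and resolution were also lower. Blm, the helicase that dissolves joined chromosomes after recombination, fell from 9.99 RPKM (CV 0.02) to 7.67 RPKM (CV 0.02), and its log2 ratio was -0.36 ± 0.02 (SE; authors' deposited table, adjusted p = 0.0023). Its adjusted p was the smallest of the 40 genes, and its change was near the median of the recombination genes. Rad54l, a motor protein that remodels the invading filament, fell from 10.1 to 7.14 RPKM (CV 0.05 and 0.08), a log2 ratio of -0.47 ± 0.06 (SE; authors' deposited table, adjusted p = 0.0067). Of the recombinase paralogs, which stabilise the filament, Xrcc2 fell from 13.4 to 10.04 RPKM, Xrcc3 from 4.42 to 3.41 RPKM and Rad51c from 5.25 to 4.09 RPKM. Rad51c passed narrowly (authors' deposited table, adjusted p = 0.0419), with group ranges that may overlap between 4.50 and 4.68 RPKM. Rad52, which anneals single strands, was at 6.22 RPKM (CV 0.06) and 5.28 RPKM (CV 0.08) and narrowly did not pass (authors' deposited table, adjusted p = 0.0585), while the moderated limma test called it lower (limma adjusted p 0.0319). In all, 11 of 15 recombination genes fell (73.3%, against 15.8% of all genes), with a median log2 ratio of -0.36.

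Of the 8 Fanconi genes, 5 fell (62.5%, against 15.8% of all genes), and the median log2 ratio was -0.37. Fancd2 and Fanci form the clamp that is ubiquitinated at a crosslink. Fancd2 fell from 12.5 RPKM (CV 0.06) to 9.06 RPKM (CV 0.07), and its log2 ratio was -0.44 ± 0.06 (SE; authors' deposited table, adjusted p = 0.0084). Fanci fell less, from 8.51 to 6.76 RPKM (CV 0.08 and 0.04; authors' deposited table, adjusted p = 0.0388). Within the ligase complex that modifies this clamp, some genes fell and others did not pass. Fanca, a scaffold subunit, fell from 11.2 to 8.10 RPKM (CV 0.08 and 0.09), with a log2 ratio of -0.44 ± 0.08 (SE; authors' deposited table, adjusted p = 0.0148). The X-linked subunit Fancb fell from 3.27 RPKM (CV 0.01) to 2.27 RPKM (CV 0.13; authors' deposited table, adjusted p = 0.0293), with wild-type samples held between 3.19 and 3.35 RPKM and the others spread from 1.80 to 2.74 RPKM at most. The subunit Fancc, at 5.46 RPKM (CV 0.01) and 5.44 RPKM (CV 0.06), differed by less than the SE of its log2 ratio, 0.04. The catalytic subunit Fancl (12.4 and 10.6 RPKM) and the translocase Fancm (5.80 and 5.14 RPKM) did not pass, with adjusted p-values of 0.1126 and 0.1293 in the authors' deposited table, although the moderated limma test called Fancl lower (limma adjusted p 0.0331). Brip1, a helicase that binds Brca1 and is also known as Fancj, fell from 8.84 to 6.43 RPKM (authors' deposited table, adjusted p = 0.0254).

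Among the groups of the fixed list, the end-joining genes showed the smallest differences. Only Xrcc5 fell of the 5 (20.0%, near the 15.8% of all genes), and the median log2 ratio was -0.04, next to -0.05 for all genes. Xrcc5 and Xrcc6 encode the Ku subunits that cap broken ends. Xrcc5 fell from 24.0 RPKM (CV 0.04) to 21.6 RPKM (CV 0.03), and its log2 ratio was -0.15 ± 0.04 (SE; authors' deposited table, adjusted p = 0.028), the smallest of the 26 falls in percent. Xrcc6, whose promoter window held an E2F motif, was at 28.9 RPKM (CV 0.08) and 28.0 RPKM (CV 0.02) and did not pass (authors' deposited table, adjusted p = 0.5159). The kinase Prkdc, which Ku recruits, was at 6.66 RPKM (CV 0.06) and 7.17 RPKM (CV 0.02), a log2 ratio of 0.10 ± 0.04 (SE) and the highest of the 40, without passing (p 0.1414 in the authors' deposited table). The ligase Lig4 (2.19 and 2.23 RPKM) and its partner Xrcc4 (7.58 and 7.37 RPKM), which seal the ends, differed by less than the SE of their log2 ratios. Summed over each set, the recombination genes went from 169 to 136 RPKM, so that the sum dropped by 19.1%. The sum of the end-joining genes went from 69.4 to 66.4 RPKM and dropped by 4.30%. Over all 15821 genes the sum dropped by 9.67%. Whether the groups of genes differ from each other was not tested.

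Both mismatch repair genes on the list fell, against 15.8% of all genes, and neither passed at the stricter threshold of 0.01. Msh6, the subunit that recognises base mismatches left by replication, fell from 40.6 RPKM (CV 0.06) to 31.5 RPKM (CV 0.07), and its log2 ratio was -0.36 ± 0.07 (SE; authors' deposited table, adjusted p = 0.0142). Pms2, an endonuclease subunit that nicks the new strand, fell from 10.8 RPKM (CV 0.08) to 8.51 RPKM (CV 0.03; authors' deposited table, adjusted p = 0.0416). The ranges of the groups were apart for both. Pms2 belongs to a family with related copies, and reads shared between such copies could not be separated here.

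Of 7 checkpoint genes 5 fell (71.4%, against 15.8% of all genes), and the median log2 ratio was -0.30. The effector kinases had larger changes than the kinases that sense damage, a contrast that was not tested. Chek1, the effector of stalled forks, fell from 11.6 RPKM (CV 0.09) to 7.86 RPKM (CV 0.08), and Chek2, the effector of breaks, from 11.7 RPKM (CV 0.07) to 7.94 RPKM (CV 0.08). Both log2 ratios were -0.53, each with an SE of 0.08 or 0.07, and the adjusted p-values were 0.0131 and 0.0082 in the authors' deposited table. The highest possible Dio3KO-labelled sample was at 8.87 RPKM for Chek1 and 8.96 RPKM for Chek2, below the lowest possible wild-type samples at 9.92 and 10.4 RPKM. The sensor kinase of breaks, Atm, fell by 13.9%, from 13.4 to 11.6 RPKM (adjusted p 0.0233 in the authors' deposited table). Atr, the sensor kinase of single-stranded DNA, pointed the other way, at 21.9 RPKM (CV 0.01) and 23.4 RPKM (CV 0.03). Its log2 ratio of 0.09 ± 0.02 (SE) did not pass (authors' deposited table, adjusted p = 0.0588), nor did it by moderated limma (limma adjusted p 0.101).

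Topbp1, the scaffold that activates Atr and another of the genes whose window held an E2F motif, fell from 46.2 RPKM (CV 0.03) to 33.2 RPKM (CV 0.04), and its log2 ratio was -0.47 ± 0.04 (SE; authors' deposited table, adjusted p = 0.0029). Wild-type samples lay no lower than 43.8 RPKM and Dio3KO-labelled samples no higher than 35.5 RPKM. Rad1, a subunit of the ring-shaped checkpoint clamp, fell from 13.7 to 11.03 RPKM (CV 0.05 and 0.08; authors' deposited table, adjusted p = 0.0243). Rad17, the loader of that clamp, was at 19.0 and 18.7 RPKM (CV 0.04 and 0.03) and did not pass (authors' deposited table, adjusted p = 0.4654). Rad9a, the clamp subunit that binds Topbp1, stood in the table under its older symbol Rad9, at 27.5 RPKM (CV 0.03) and 25.1 RPKM (CV 0.04; authors' deposited table, adjusted p = 0.0392). It fell by 8.87% and is not counted among the 40.

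Of the 3 genes that mark damage 2 fell (66.7%, against 15.8% of all genes), and the median log2 ratio was -0.50. H2afx had the largest change of all 40 genes. It encodes the histone variant H2AX, whose phosphorylation marks chromatin around a break, and lies on chromosome 9 from 44334694 to 44336077 on the plus strand (mm10). It fell from 439 RPKM (CV 0.05) to 254 RPKM (CV 0.13), and so dropped by 42.2%, a log2 ratio of -0.79 ± 0.10 (SE; authors' deposited table, adjusted p = 0.0056). Wild-type samples were between 403 and 476 RPKM and Dio3KO-labelled samples between 202.5 and 305 RPKM at most. With 41.1% of the summed wild-type level of the 40 genes, H2afx made up much of the total. The sum of the other 39 went from 629 to 529 RPKM and so dropped by 15.8%, whereas with H2afx included it dropped by 26.7%. The sum over all 15821 genes dropped by 9.67%. Rad18, a ubiquitin ligase that marks the sliding clamp at stalled forks, fell from 17.5 RPKM (CV 0.11) to 12.2 RPKM (CV 0.10), and its log2 ratio was -0.50 ± 0.10 (SE; authors' deposited table, adjusted p = 0.0287). Parp1, the enzyme that coats breaks with poly(ADP-ribose) and the second most abundant transcript of the set, was at 116 RPKM (CV 0.08) and 107 RPKM (CV 0.02). It did not pass (authors' deposited table, adjusted p = 0.2126).

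**Figure D2:**
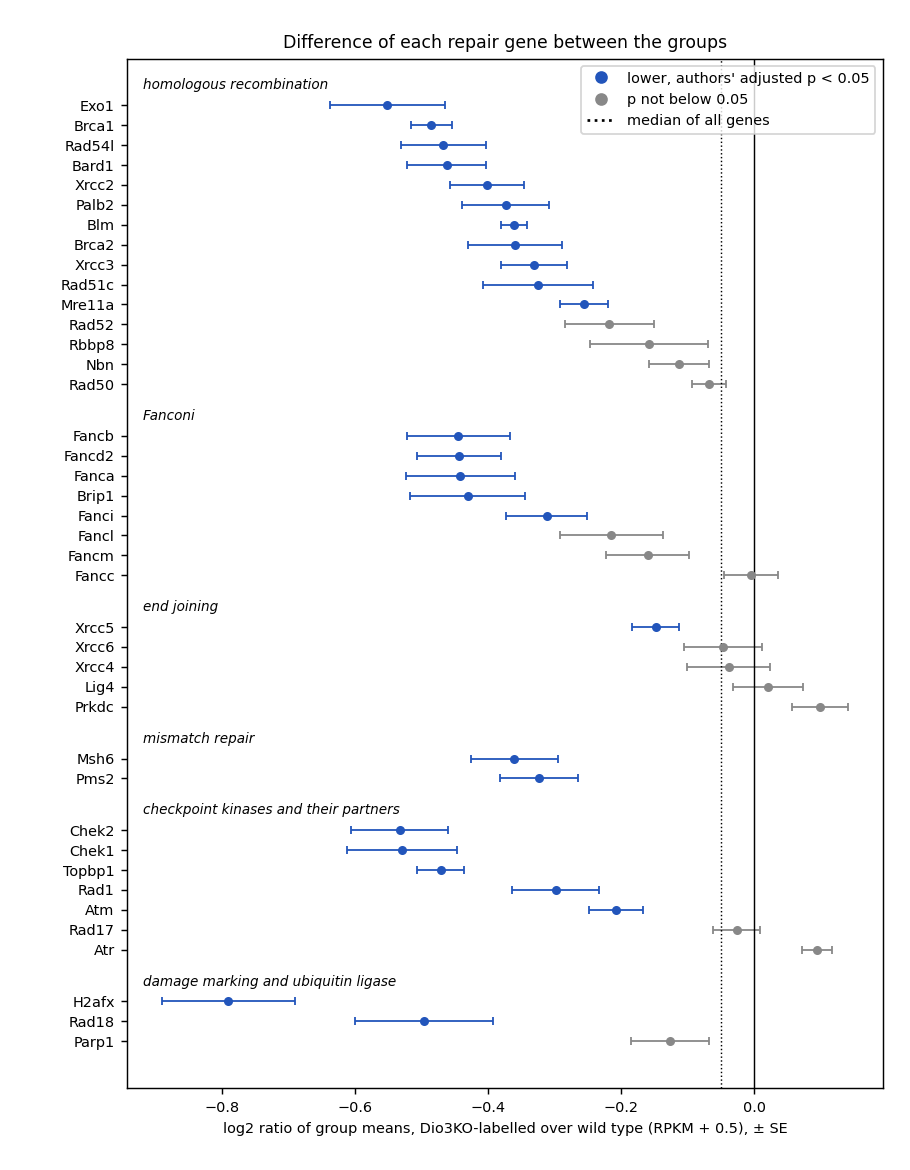
Log2 ratio of the group means (Dio3KO-labelled over wild type, 0.5 RPKM added to each) for the 40 repair genes, ordered within each functional group, with the SE computed from the deposited CVs of 4 samples per group. Blue points passed the threshold of 0.05 and all lie below 0, and the dotted line marks the median of all genes at -0.05.

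The 40 genes had 117 listed transcripts, of which 109 were below 0 in log2 ratio, 71 fell and 1 rose. Among all 35030 transcripts at 1 RPKM or more, which include these 117, 57.7% were below 0, 15.7% fell and 13.9% rose. In 29 genes with more than 1 transcript, 0 had transcripts on both sides of 0, and in 15 of them every transcript fell. Transcripts of a gene share exons and reads, so they are not independent. In 7 genes some transcripts passed and others did not. For Rad50, 3 of 5 transcripts fell although the one that stands for the gene did not pass, with adjusted p-values from 0.0072 to 0.1166 in the authors' deposited table and log2 ratios from -0.11 to -0.07. For Rad52, 2 of 5 passed. Brca2 had 3 of 4 that fell, Fanca 5 of 6, Pms2 4 of 6 and Fanci 1 of 3. Atr held the only transcript that rose (authors' deposited table, adjusted p = 0.0231), and all 5 of its transcripts were above 0, as were both of Prkdc.

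**Figure D3:**
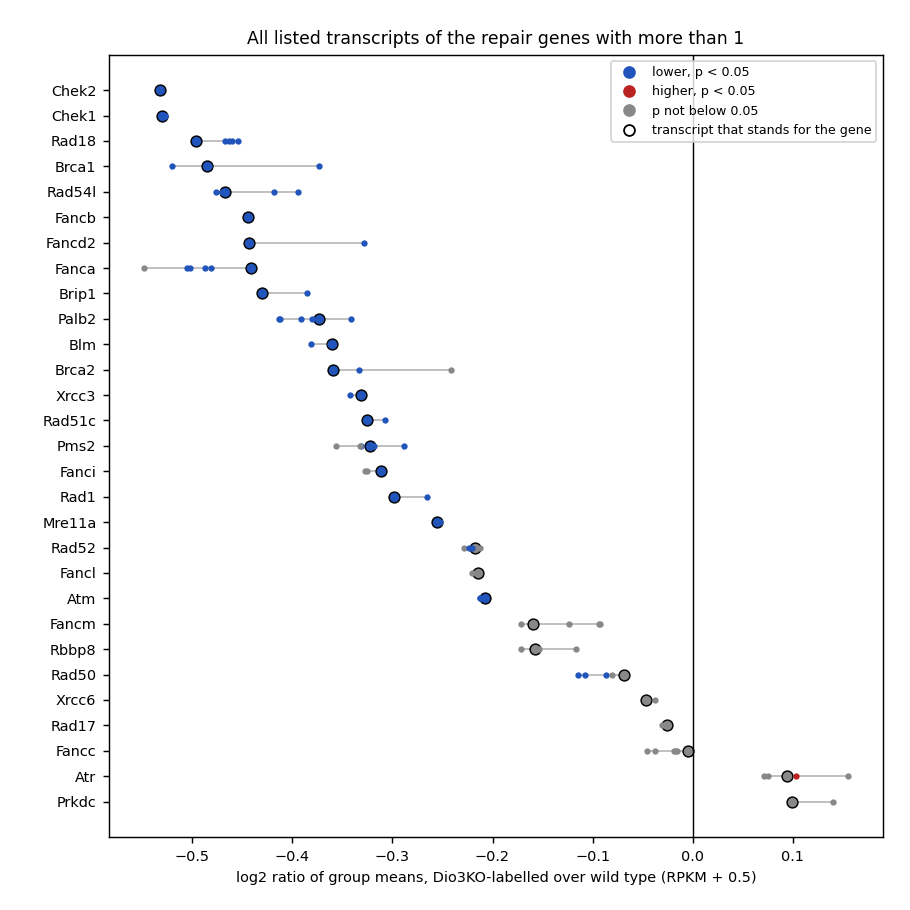
Log2 ratio (Dio3KO-labelled over wild type, RPKM + 0.5) of each transcript of the 29 repair genes with more than 1 listed transcript, with the one that stands for the gene outlined in black. Transcripts of a gene lie on the same side of 0 in all 29 genes, and those of Atr and Prkdc lie above it.

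Other repair genes were compared from lists that were written with earlier results of these data known. Of 75 further genes of recombination, Fanconi, end joining, mismatch repair, checkpoint and single-strand binding, 34 fell and 2 rose, against 15.8% and 13.8% of all genes. By moderated limma 45 were lower and 2 higher, against 23.1% and 18.5% of all genes. The median log2 ratio of the 75 was -0.23, and 72 of them were below 0. By list, the median was -0.24 for recombination, -0.17 for Fanconi and -0.17 for end joining. The gap between Fanconi and end joining in the fixed list was thus not seen in these wider lists. Of 25 other recombination genes 12 fell, among them the Holliday junction resolvase Gen1 (5.42 to 3.06 RPKM, adjusted p 0.0038 in the authors' deposited table) and the nuclease-helicase Dna2 (5.50 to 3.73 RPKM, p 0.0041 in the same table). Of 15 other checkpoint genes 10 fell and 0 rose, including the fork protection factor Timeless (15.8 to 9.85 RPKM) and Clspn, which hands the signal from Atr to Chek1 (12.7 to 8.76 RPKM). The moderated limma test called 12 of these 15 lower and 0 higher, against 23.1% and 18.5% of all genes. Of 15 other Fanconi genes 3 fell, Slx4 (6.33 to 5.03 RPKM), Usp1, which removes ubiquitin from the Fancd2 clamp (37.2 to 26.4 RPKM), and Apitd1 (4.84 to 2.90 RPKM). This share of 20.0% is near the 15.8% of all genes, and the moderated limma test called 6 of the 15 lower, against 23.1% of all genes. Of 12 other end-joining genes 5 fell, among them Parp2 (25.5 to 21.2 RPKM). Another of these, Polq, the polymerase of an alternative joining route used in dividing cells, went from 3.10 to 2.03 RPKM, while Parp3 rose from 3.61 to 4.90 RPKM. The other gene that rose was Sfr1, listed under the older symbol 6330577E15Rik, from 117 to 130 RPKM, named after its value was seen. Of 5 other mismatch repair genes 2 fell, Pms1 among them (9.24 to 7.28 RPKM). The single-strand binding subunits Rpa1 (48.8 to 38.8 RPKM) and Rpa2 (58.6 to 42.8 RPKM) fell and Rpa3 (32.3 and 27.2 RPKM) did not pass.

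The repair genes were lower in the same samples in which genes of replication and mitosis were lower. Among all genes 15.8% fell, and the median log2 ratio was -0.05. Of 35 replication genes 31 fell, with a median log2 ratio of -0.54, among them Pcna (162 to 108 RPKM) and Lig1 (29.4 to 20.4 RPKM). All 28 mitosis genes fell, with a median of -0.72 and a range of -1.13 to -0.51. Of the 40 repair genes 4 lay below the least changed mitosis gene, namely H2afx, Exo1, Chek2 and Chek1, and 2 lay below the median replication gene. In a whole testis, fewer cells that express a gene and less of its RNA per cell cannot be told apart, and the part of the share of dividing cells in the falls of the repair genes was not tested.

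**Figure D4:**
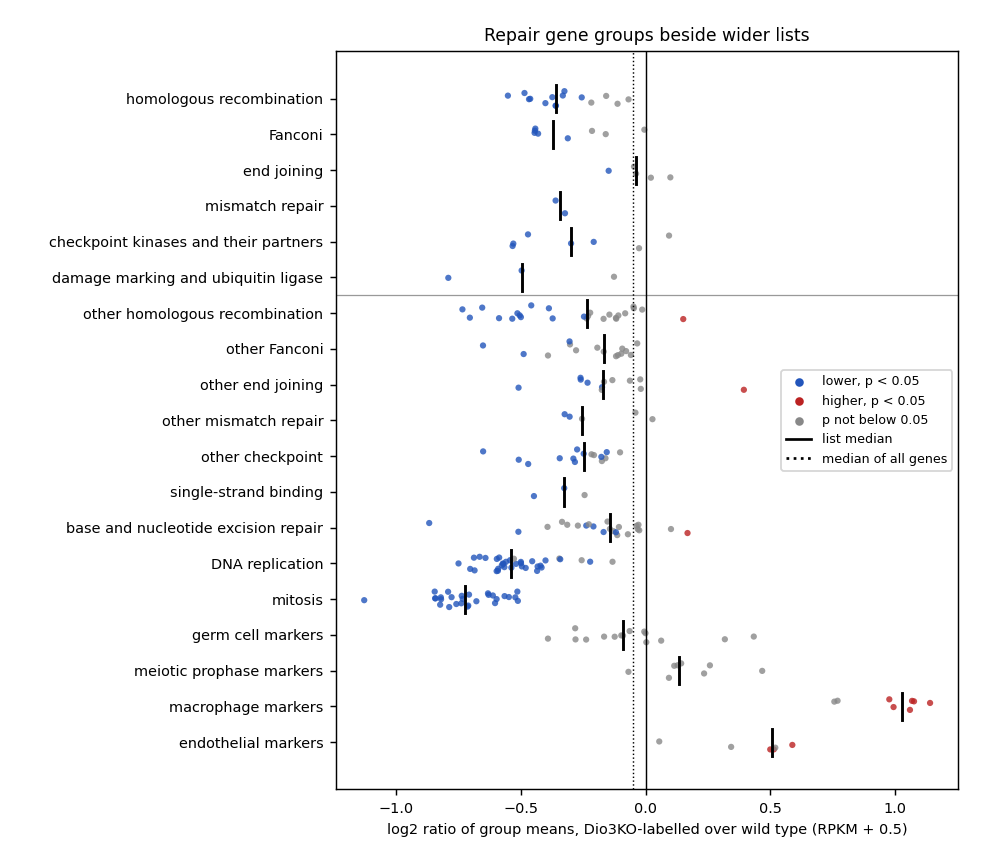
Log2 ratio (Dio3KO-labelled over wild type, RPKM + 0.5) of each gene in the 6 groups of repair genes (above the grey line) and in wider lists (below it), with black bars at list medians. Listed recombination and Fanconi genes centre on -0.36 and -0.37 and listed end-joining genes on -0.04. Their wider lists centre on -0.24 for recombination, -0.17 for Fanconi and -0.17 for end joining. Replication centres on -0.54 and mitosis on -0.72, and macrophage and endothelial markers lie above 0.

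Markers of other cells were measured beside these results. For comparison, 13.8% of all 15821 genes rose and 15.8% fell, and moderated limma called 18.5% higher and 23.1% lower. Of 15 germ cell markers 0 passed in either direction in the authors' deposited table, with a median log2 ratio of -0.09 and sums of 347 and 325 RPKM, while by moderated limma 1 was higher and 3 lower, the same counts as at an unadjusted limma p below 0.05. Of 8 meiotic prophase markers at 1 RPKM or more, 0 passed, with a median of 0.14 and sums of 47.0 and 56.8 RPKM, and limma called 1 higher and 0 lower (2 and 0 unadjusted). Macrophage markers were higher in the Dio3KO-labelled group, 6 of 8 having risen with a median of 1.03 and sums of 73.6 and 146 RPKM, and 3 of 6 endothelial markers rose, with sums of 50.5 and 62.8 RPKM. No marker of these lists was listed at 0 in both groups, and their part in the repair gene differences was not tested. The tissue was checked against its markers because the extraction text names the hypothalamus. Sums over 10 Sertoli cell markers were 1408 and 1403 RPKM, with 2 that rose and 5 that fell. These near-equal sums hold opposite changes, such as those of Cldn11 (83.6 to 299.9 RPKM) and Amh (284 to 127 RPKM). Sums over 7 Leydig cell markers were 472 and 643 RPKM, with 2 that rose and 1 that fell. By contrast, 11 of 14 hypothalamic and neuronal markers were under 1 RPKM in both groups and the highest mean of 7 neuropeptide genes was 1.49 RPKM.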

How the data were processed

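The labels list 8 testis samples (4 wild type, 4 Dio3KO) from postnatal day 5. The authors deposited 1 table that gives, per the file headers, the mean RPKM of each group, its coefficient of variation (a ratio, SD over mean) and an adjusted p-value of wild type against KO for each transcript. The submitters' processing notes name FastQC, Novoalign 2.08 and mm10. For the counter, annotation, strandedness and test the entry is: not given in the sources used here. Without strand, reads of overlapping antisense genes cannot be told apart. Of 147417 lines, in which each transcript stood 3 times, 49139 transcripts remained. 0 columns of sample values were left unused. Depth is unknown.

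Symbols were taken as deposited, ignoring case. The transcript with the highest average mean stood for each of 24499 genes. Members and lists were chosen with earlier results of these data known. All 40 members found are named with their means. Those with the smallest adjusted p in each group (up to 4) and the highest that did not pass (up to 2) were to be given with errors. From each wider list, up to 3 genes past the threshold are named, and some genes that this rule takes are not reported here. Variances of log2 means came from the CVs by the delta method. The limma 3.58.1 alternative (R 4.3.3, squeezeVar, trended and robust, with 6 residual degrees of freedom, CVs below 0.0025 set to that value, Benjamini-Hochberg over 15821 genes) was tested on simulated data. The range of 1.5 SD, chosen after seeing the data, assumes a sample SD, which the highest CV of 2.00 requires for 4 samples, and allows for rounding. Promoter windows were read from RefSeq. The last 25 bases of 36 of 37 windows stood in a GENCODE M21 transcript of the same gene. Gene coordinates are from GENCODE M21.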

Additional observations from a re-analysis of the deposited data

How the results depend on the processing

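Direction and call of the repair genes were recomputed under other pseudocounts (0.1 and 1 RPKM), other filters, summed transcripts, a rescaling and other thresholds and tests. With a threshold of 0.01 on the p of the authors' deposited table, 10 of the 40 repair genes were lower instead of 26, against 4.90% of all genes, so the count depends on the threshold. With the second best expressed transcript standing for the 29 genes that have one, 27 were lower and 1, Atr, was higher instead of 0. The count lower was 23 with a filter of 5 RPKM (against 17.9% of all genes under that filter). It was 28 with the moderated limma test (against 23.1% of all genes). Dropping the filter could not change the count of 26, because all 40 genes pass the filter of 1 RPKM. The median log2 ratio of all 40 ranged from -0.34 to -0.27, and 0 genes that fell changed sign. Setting the median of all genes to 0 left 33 below and 7 above it. No paired analysis was possible because the table holds group means and no values of single samples, and for the same reason leaving out each replicate was not run. The test behind the deposited p-values is unknown, and no counting error could be given because depth is unknown.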

Other observations

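Genes of base and nucleotide excision repair, which mend damaged bases and bulky lesions on 1 strand, were also measured. Of these 23 genes 6 fell (26.1%, against 15.8% of all genes) and 1 rose, and their median log2 ratio was -0.14, against -0.05 for all genes. The deepest fall was that of Neil3, a glycosylase of dividing cells that also unhooks crosslinks, from 8.60 to 4.49 RPKM, a log2 ratio of -0.87 (authors' deposited table, adjusted p = 0.0041). Ung, which removes uracil from new DNA, fell from 34.5 to 24.1 RPKM and the glycosylase Mpg from 20.3 to 17.2 RPKM. The 1 that rose was Ercc6, a remodeller of transcription-coupled repair, from 11.6 to 13.1 RPKM (authors' deposited table, adjusted p = 0.0206).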
